A study of Mus musculus with 3 samples.

Results

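The genes described here encode 6 families of guidance proteins and their receptors, in Alpha6+/Sca1- cells of mouse back skin. The rule that selects them reads gene symbols and no measured value: the semaphorins of classes 3 to 7, plexins, neuropilins, Eph receptors, ephrins, Slit and Robo proteins, netrins (Ntn) and Unc5 receptors. Of 44625 gene entries in the table, 67 matched, and all 67 are annotated as protein-coding. RNA came from wild-type mice 56 days old, an age at which the back-skin hair cycle is in its 2nd resting phase (telogen). Skin was digested with trypsin, the epidermis was parted from the dermis, and live single cells labelled as carrying integrin alpha6 and lacking Sca1 were sorted by flow cytometry; the protocol names an antibody for alpha6 only. PolyA RNA was sequenced in 3 libraries that form 1 group. The labels speak of duplicates while there are 3 libraries, and they do not say whether cells of several mice were pooled, so an SD over 3 may cover fewer separate collections. Hair follicle stem cell markers were present: Krt15 had 23208 ± 3176 TPM and Cd34 535 ± 56.8 TPM (SD, n = 3), and all 8 markers of that list had at least 1 TPM.

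As background, these families were named for steering growing axons and also act between epithelial cells. Ephrins and Eph receptors sit on the surfaces of touching cells and signal in both directions; type A ephrins are held by a lipid anchor, and type B ephrins cross the membrane. Semaphorins signal through plexins, most class 3 semaphorins with a neuropilin as coreceptor. Slit proteins bind Robo receptors, and netrins bind Unc5 receptors, Dcc and neogenin (Neo1). In hair follicles, such contact and short-range signals are known to bear on how epithelial cells stay sorted and attached. H3K27me3, the histone mark laid down by Polycomb complexes, is associated with genes kept silent.

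Levels are given as TPM (counts per unit of gene length, scaled so that each library has the same sum), and a gene was called detected at a mean of at least 1 TPM. By that limit 38 of the 67 genes (56.7%) were detected, beside 54.9% of 21426 protein-coding genes and 30.6% of all entries. The median over the 67 genes of the mean log2(TPM + 1) was 1.84, beside 1.72 over protein-coding genes. In bulk RNA, fewer cells of a type and less RNA per cell cannot be told apart, which holds for every level given here. Of the 67 genes, 7 had at least 100 TPM, 22 had 10 to 100 TPM, 9 had 1 to 10 TPM, and 29 lay under 1 TPM, 6 of these with 0 counts in every library. The 3 libraries held 29283936, 35264901 and 39198620 counts, of which these genes took 0.432%, 0.490% and 0.454%. Replicate 1 stood apart across the transcriptome: 8.33% of 11761 detected protein-coding genes differed in it from both others by more than 1 on the log2 scale, against 0.340% in replicate 2 and 0.587% in replicate 3. None of the 38 detected guidance and Eph genes differed in this way in any library. Replicate 1 gave the top value for 10 of these 38, replicate 2 for 21 and replicate 3 for 7, while the shares over detected protein-coding genes were 60.0%, 20.7% and 19.3%. Without replicate 1, 39 genes were detected, Nrp1 being the addition.

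Sequence upstream of the start is shown first for 7 genes, since undetected members of these families differed in it and in the H3K27me3 value that the authors deposited per gene. Each stretch reads 5′ to 3′ on the gene's strand toward the RefSeq transcription start (GRCm38.p6), ends before any base of the gene in GENCODE M21, and has each CG dinucleotide in capitals. Among plexin B genes, Plxnb1 was expressed and Plxnb3 had 0 counts without an H3K27me3 value.
Plxnb1 (chr9:109095186-109095388, plus strand): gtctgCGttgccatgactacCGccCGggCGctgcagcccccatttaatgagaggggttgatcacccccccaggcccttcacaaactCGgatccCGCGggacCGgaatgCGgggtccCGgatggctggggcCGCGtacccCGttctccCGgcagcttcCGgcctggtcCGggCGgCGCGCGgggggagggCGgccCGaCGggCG
Plxnb3 (chrX:73756853-73757089, plus strand): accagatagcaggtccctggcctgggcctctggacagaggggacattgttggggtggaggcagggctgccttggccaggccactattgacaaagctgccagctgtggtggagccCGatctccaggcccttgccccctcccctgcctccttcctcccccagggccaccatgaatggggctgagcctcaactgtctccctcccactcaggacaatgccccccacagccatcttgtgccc
Among Robo genes, Robo2 was expressed, Robo3 had at most 3 counts in a library and an H3K27me3 value, and Robo4 had 0 counts without one.
Robo2 (chr16:74411826-74412075, minus strand): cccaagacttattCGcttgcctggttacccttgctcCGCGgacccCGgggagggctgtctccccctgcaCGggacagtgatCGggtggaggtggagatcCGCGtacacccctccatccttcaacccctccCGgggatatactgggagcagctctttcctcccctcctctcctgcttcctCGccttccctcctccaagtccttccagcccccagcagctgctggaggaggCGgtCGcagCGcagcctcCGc
Robo3 (chr9:37433247-37433425, minus strand): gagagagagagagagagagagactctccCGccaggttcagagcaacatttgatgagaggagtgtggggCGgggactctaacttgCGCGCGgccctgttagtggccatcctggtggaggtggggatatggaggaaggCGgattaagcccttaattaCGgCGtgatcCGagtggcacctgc
Robo4 (chr9:37401722-37401896, plus strand): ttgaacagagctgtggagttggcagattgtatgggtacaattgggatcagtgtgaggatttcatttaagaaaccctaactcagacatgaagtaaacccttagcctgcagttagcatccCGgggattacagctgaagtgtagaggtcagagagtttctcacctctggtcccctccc
Among Eph receptors, Ephb6 had the highest level, and Epha8 had at most 1 count in a library and an H3K27me3 value.
Ephb6 (chr6:41605261-41605481, plus strand): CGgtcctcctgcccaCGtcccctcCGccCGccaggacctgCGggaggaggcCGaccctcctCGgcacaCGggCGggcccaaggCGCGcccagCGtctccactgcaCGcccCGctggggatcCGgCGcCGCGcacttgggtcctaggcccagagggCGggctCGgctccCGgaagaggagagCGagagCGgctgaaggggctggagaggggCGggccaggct
Epha8 (chr4:136956817-136957066, minus strand): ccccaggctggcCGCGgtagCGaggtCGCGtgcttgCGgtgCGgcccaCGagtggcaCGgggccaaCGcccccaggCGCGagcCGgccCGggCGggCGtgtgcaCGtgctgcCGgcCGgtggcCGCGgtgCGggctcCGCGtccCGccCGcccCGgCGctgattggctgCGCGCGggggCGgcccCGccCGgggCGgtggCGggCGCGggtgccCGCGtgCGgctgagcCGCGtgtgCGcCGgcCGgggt
The stretches of Plxnb1, Robo2, Ephb6 and Epha8 held 24, 14, 24 and 46 CG dinucleotides. Robo3 held 9, and Plxnb3 and Robo4 held 1 each. The printed stretches have between 175 and 250 bases, so these numbers can be lower than those over the full 250 bases given below.

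All 8 ephrin genes were detected, and none carried an H3K27me3 value above 0. Together they reached 877, 1006 and 807 TPM in replicates 1, 2 and 3. Efna1 (chromosome 3, 89271733 to 89281142, minus strand), a type A ephrin, had 271, 306 and 254 TPM in replicates 1, 2 and 3, and was the highest of the ephrins in every library. Efnb1, a type B ephrin encoded on the X chromosome, had 119, 203 and 172 TPM, lowest in replicate 1. Efnb2, the ligand best known for binding Ephb4, had 195, 158 and 103 TPM, highest in replicate 1. The mean levels of Efnb1 and Efnb2, 165 ± 42.4 TPM and 152 ± 46.6 TPM (SD, n = 3), did not differ beyond their spread. Efna3 had 125, 156 and 135 TPM. Efna4 had 110.4, 111 and 81.7 TPM, so that Efna3 lay above Efna4 in each library. Efna1, Efna3 and Efna4 lie side by side on chromosome 3 within 66296 bases (89271733 to 89338028). Antisense genes overlap 14.1% of the exonic bases of Efna3 and 10.5% of those of Efna4, and the strand setting of the counting is not given in the sources used here; those antisense genes had 1.14 and 0.607 TPM. Efna5 had 40.3, 51.9 and 47.4 TPM. Efna2 had 12.3, 18.8 and 12.6 TPM, highest in replicate 2. Efnb3 was the lowest ephrin with 4.08, 1.93 and 2.08 TPM. Summed type A ephrins were above summed type B ephrins in 3 of 3 libraries, with a log2 ratio of B to A of -0.86 ± 0.07 (SD, n = 3) on the TPM scale. On CPM, which does not divide by gene length, the ratio was 0.39.

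**Figure D1:**
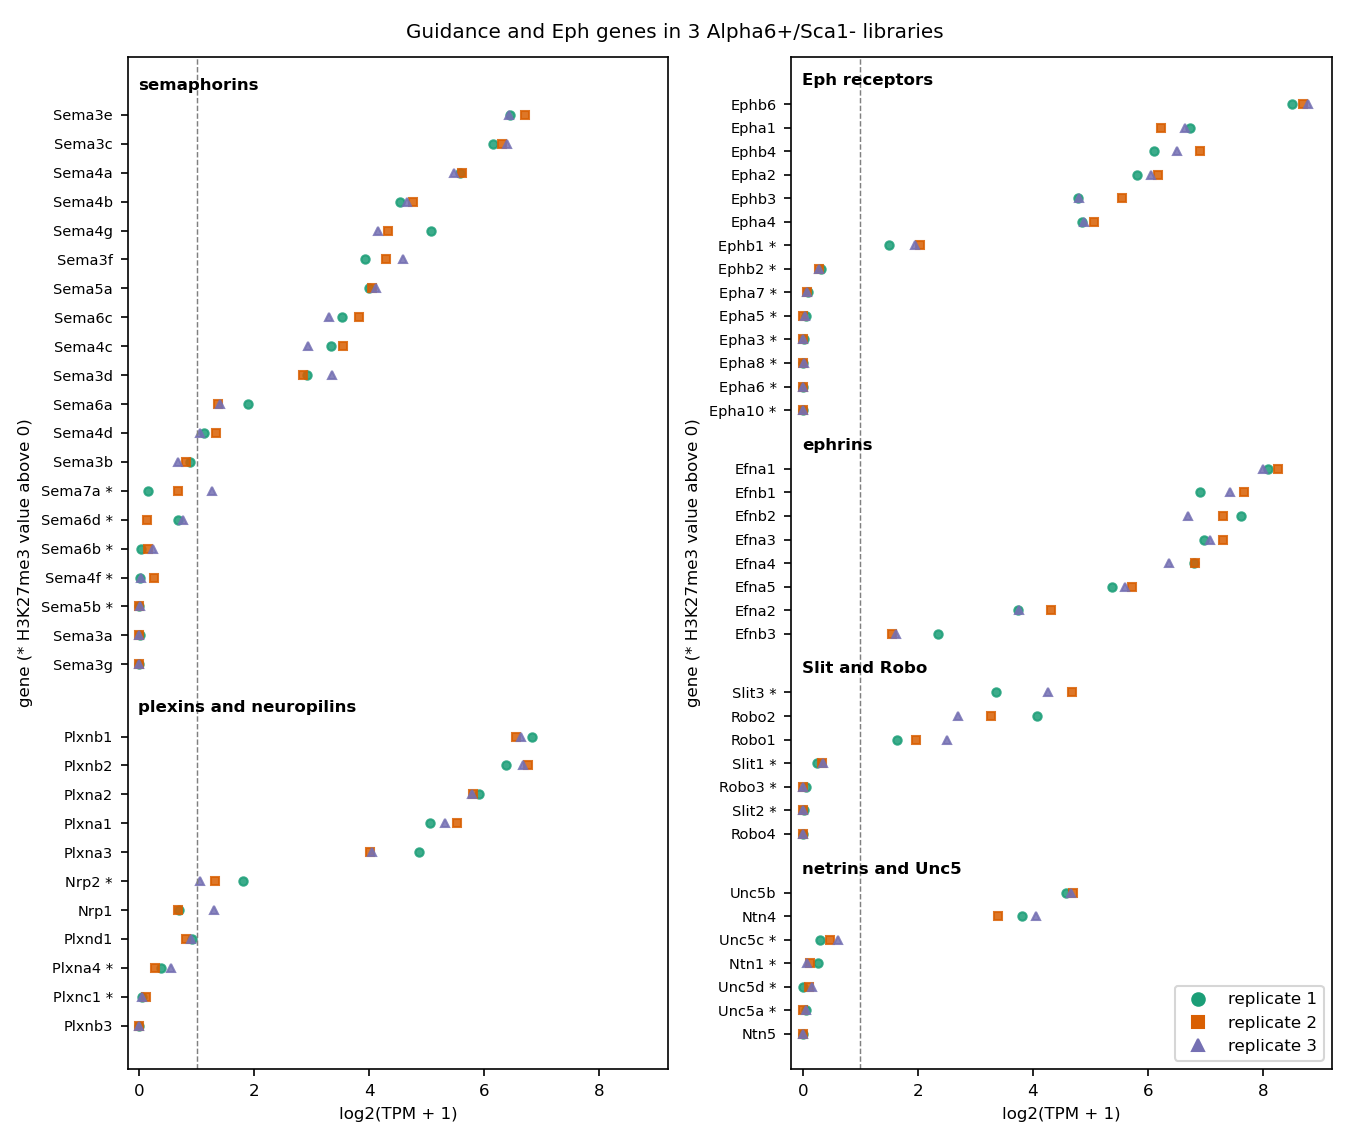
Level of each of the 67 genes in log2(TPM + 1), 1 symbol per library; the dashed line marks 1 TPM and an asterisk marks an H3K27me3 value above 0. All 8 ephrins lie to the right of the line in every library, while 7 of the 8 Eph receptors with an asterisk lie to its left.

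Of the 14 Eph receptors, 7 were detected, and the others had means of 0.229 TPM or less. Ephb6 (chromosome 6, 41605482 to 41620509, plus strand), a receptor without kinase activity, had 363, 412 and 442 TPM, the highest level of all 67 genes in every library. It took 56.4% ± 2.07 (SD, n = 3) of the summed TPM of Eph receptors, and was higher than 97.9% of detected entries. Epha1, an epithelial Eph receptor, had 105, 74.1 and 98.6 TPM, lowest in replicate 2. Zyx, on the opposite strand with 133 TPM, overlaps 6.01% of its exonic bases. Ephb4, which prefers ephrin-B2, had 67.5, 118 and 90.2 TPM. The means of Epha1 and Ephb4, 92.5 ± 16.2 TPM and 92.0 ± 25.4 TPM (SD, n = 3), did not differ beyond their spread. Epha2, an epithelial receptor for type A ephrins, had 54.8, 71.2 and 65.2 TPM. Ephb3 had 26.7, 46.0 and 26.7 TPM, with replicates 1 and 3 close together. Epha4, which binds ephrins of both types, had 27.9, 32.4 and 28.7 TPM. Ephb1 was the lowest detected receptor, with 1.82, 3.10 and 2.88 TPM, and the only detected one with an H3K27me3 value above 0. The 7 undetected receptors all carried a value above 0. Of these, Ephb2 had 0.250, 0.220 and 0.216 TPM, Epha7 and Epha5 had at most 9 counts in a library, and Epha3 and Epha8 had at most 1. Epha6 and Epha10 had 0 counts in every library, which allows up to 0.0526 and 0.0386 TPM (3 counts, counting error only). Summed EphB receptors lay above summed EphA receptors in 3 of 3 libraries, by 1.51 ± 0.21 on the log2 scale (SD, n = 3). Ephb6 accounted for 76.3% ± 4.47 of the EphB sum. Summed receptors lay below summed ephrins by 0.44, 0.41 and 0.10 on the log2 scale of TPM in replicates 1, 2 and 3, and on CPM the mean log2 ratio of receptors to ephrins was 0.12.

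Of 20 semaphorins, 12 were detected, and 2 secreted members of class 3 were highest. Sema3e, which acts through Plxnd1 without needing a neuropilin, had 85.8, 104 and 85.5 TPM. Sema3c, which binds neuropilins, had 69.8, 77.9 and 83.4 TPM. The membrane-bound Sema4a had 46.8, 47.9 and 43.5 TPM, a spread of 4.97% of its mean. Class 4 semaphorins are membrane proteins that bind mainly B plexins. Sema4b had 22.1, 26.3 and 24.1 TPM. Sema4g had 32.6, 19.1 and 16.7 TPM, highest in replicate 1. Sema3f, a ligand of Nrp2, had 14.2, 18.6 and 22.9 TPM. Sema5a, a membrane protein with thrombospondin repeats, had 15.0, 15.6 and 16.4 TPM. Sema6c, a transmembrane semaphorin, had 10.5, 13.1 and 8.87 TPM. Sema4c had 9.13, 10.7 and 6.69 TPM. The means of these last 4 genes fell from 18.6 to 8.82 TPM in the order given. Sema3d had 6.60, 6.19 and 9.22 TPM. Sema6a and Sema4d, the ligand best known for Plxnb1, were the lowest detected, with 2.72, 1.58 and 1.65 TPM and 1.19, 1.54 and 1.08 TPM. Class 3 lay above class 4 in 3 of 3 libraries, with sums of 177, 207 and 202 TPM against 112, 106 and 92.2 TPM in replicates 1, 2 and 3. The mean log2 ratio of class 4 to class 3 was -0.92 on TPM and -1.52 on CPM.

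The 8 semaphorins under 1 TPM were of 2 kinds. Sema4f, Sema5b, Sema6b, Sema6d and Sema7a had H3K27me3 values from 6461 to 21396. Sema7a, a semaphorin with a lipid anchor, had 0.113, 0.598 and 1.40 TPM, from 4, 27 and 71 counts, so that the library decides on which side of 1 TPM it lies. Sema6d had 0.597, 0.104 and 0.700 TPM, and the means of Sema4f, Sema5b and Sema6b were 0.0784 TPM, 0.00305 TPM and 0.104 TPM. These 3 means rest on at most 14, 1 and 11 counts in a library, and that of Sema4f was 0.0210 TPM without replicate 2. Sema3a, Sema3b and Sema3g had a value of 0. Sema3a, the prototype axon repellent, had 1, 0 and 0 counts, and Sema3g had 0 counts in every library. Sema3b had 0.855, 0.764 and 0.597 TPM.

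Semaphorin receptors of the plexin A and B classes were high, and the neuropilins were low. Plxnb1, the receptor of Sema4d, had 113, 93.4 and 98.3 TPM. Plxnb2, a receptor of class 4 semaphorins, had 82.3, 108 and 101 TPM. Their order changed between replicate 1 and the others. Plxna2 had 58.8, 55.1 and 54.1 TPM, a spread of 4.50% of its mean. Plxna1, a partner of neuropilins like Plxna2, had 32.4, 44.9 and 38.9 TPM, and an antisense gene at 0.272 TPM overlaps 10.7% of its exonic bases. Plxna3 had 28.3, 15.1 and 15.5 TPM, highest in replicate 1. Plxna4, with an H3K27me3 value of 22914, had 0.303, 0.207 and 0.478 TPM. Plxnb3 had 0 counts in every library, so that up to 0.0429 TPM could have been missed. Summed plexin B lay above summed plexin A in 3 of 3 libraries, by 0.79 ± 0.08 on the log2 scale of TPM (SD, n = 3), and by 0.18 on CPM.

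The levels of some ligands are set here beside those of a known partner, the pairs being chosen after their values were seen. Plxnd1, the receptor of Sema3e, had 0.902, 0.760 and 0.861 TPM, so its ligand at 91.7 TPM was the more abundant transcript in each library. Nrp2 had 2.50, 1.50 and 1.09 TPM and an H3K27me3 value of 16281. Nrp1 had 0.616, 0.605 and 1.46 TPM and a value of 0. Both neuropilins thus lay below Sema3c and Sema3f in every library. Plxnc1, the plexin partner of Sema7a, had 0.0355, 0.0932 and 0.0414 TPM. Efnb2 and its receptor Ephb4 both had at least 67.5 TPM in every library. Over all families, 22 of 34 ligands were detected (median over ligands 9.82 TPM), beside 16 of 33 receptors and coreceptors (0.893 TPM). The ligand families differed: all 8 ephrins were detected (median 120 TPM), but 12 of 20 semaphorins (4.66 TPM), 1 of 3 Slit genes and 1 of 3 netrins. These bulk values do not place ligand and receptor in the same cells.

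Endothelial cells are known for Nrp1, Plxnd1, Robo4 and Sema3g. Of 6 endothelial markers, none reached 1 TPM. Cdh5, Cldn5 and Emcn were at 0, and the 6 summed to between 0.226 and 0.436 TPM per library. Fibroblast markers summed to 45.3 TPM in replicate 2, 40.4 TPM in replicate 3 and least in replicate 1, with 2 of 7 detected and Lum and Dpt at 0. That sum was almost wholly Col1a1 and Col1a2, with Col3a1 at 0.0273 TPM. Schwann cell markers summed to 3.36 to 5.44 TPM (3 of 5 detected, Cdh19 at 0), melanocyte markers to 13.1 to 15.5 TPM (3 of 5 detected), immune markers to 10.8 to 19.9 TPM (2 of 5 detected) and Merkel cell markers to 4.03 to 5.04 TPM (1 of 4 detected, Krt20 and Atoh1 at 0). Markers of suprabasal epidermis, all 5 detected, summed to 2891, 4051 and 6627 TPM in replicates 1, 2 and 3. The part of all these cells in the values given was not tested.

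**Figure D2:**
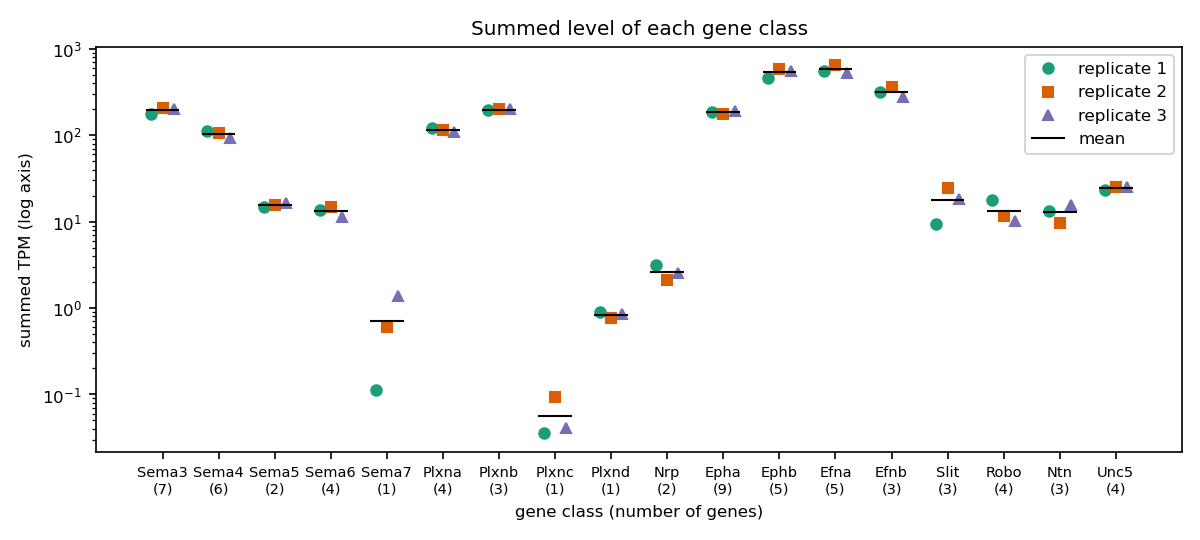
Summed TPM of each gene class on a log axis, 1 symbol per library, with the mean as a bar and the number of genes in brackets. Type A ephrins and EphB receptors have the highest sums, and the libraries differ most in relative terms for the single class 7 semaphorin.

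Slit, Robo, netrin and Unc5 genes each had 1 or 2 expressed members. Slit3, a secreted Robo ligand, had 9.31, 24.5 and 18.2 TPM, lowest in replicate 1. Robo2 had 15.8, 8.68 and 5.50 TPM, and Robo1 2.11, 2.93 and 4.67 TPM. Robo2 was highest and Robo1 lowest in replicate 1. Slit3 and Robo2 were the 2 detected genes whose libraries spanned more than 1 on the log2(TPM + 1) scale, with ranges of 1.31 and 1.37. The log2 ratio of summed Slit to summed Robo was -0.91, 1.10 and 0.86, a mean of 0.35 ± 1.10 (SD, n = 3). It has no settled direction: the mean was 0.98 without replicate 1, -0.03 without replicate 2, 0.09 without replicate 3 and -0.85 on CPM. Slit1 had 0.188, 0.259 and 0.285 TPM and Slit2 5, 0 and 1 counts. Robo3, known from commissural axons, and Robo4 are neighbours 553 bases apart on chromosome 9 (37401897 to 37433246). Robo3 had 3, 0 and 0 counts and Robo4 0 in each library. Unc5b, a netrin receptor, had 23.0, 25.0 and 24.3 TPM, and made up 98.1% ± 0.795 of the Unc5 sum (SD, n = 3). Ntn4, a netrin that binds laminins of the basement membrane, had 13.1, 9.51 and 15.7 TPM. Ntn1, the classical netrin, had 0.207, 0.0931 and 0.0516 TPM beside an H3K27me3 value of 29874, and Ntn5 had 0 counts. Unc5a, Unc5c and Unc5d had at most 0.529 TPM in any library. Dcc, the attractive netrin receptor, had 0 counts in every library, while its relative Neo1 had 57.5 ± 3.94 TPM (SD, n = 3).

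Detected and undetected members of these families differed in the H3K27me3 value. The authors' value was above 0 for 24 of the 67 genes (35.8%), against 11.2% of protein-coding genes and 8.06% of all entries. Which cells it was measured in, and its unit, are not given in the sources used here, and 5 of the 24 genes shared their number with another entry. Of the 24 genes, 3 were detected (12.5%), beside 17.3% of 2399 protein-coding genes with a value. Of the 43 genes without a value, 35 were detected (81.4%), beside 59.6% of 19027 protein-coding genes without one. The median level was 0.0712 TPM with a value and 22.8 TPM without. The detected 3 were Slit3 with a value of 2950, Ephb1 with 4303 and Nrp2 with 16281. The values of Slit3 and Ephb1 were among the 3 lowest of the 24, Epha6 with 1495 being the lowest. Nrp2 lay above the median value of 13189 over the 24 genes. The largest values belonged to Epha10 (31217), Ntn1 (29874), Plxna4 (22914), Sema6b (21396) and Ephb2 (18113). By family, the value was above 0 for 8 of 14 Eph receptors, 5 of 20 semaphorins, 3 of 11 plexins and neuropilins, 3 of 3 Slit genes, 1 of 4 Robo genes, 3 of 4 Unc5 genes, 1 of 3 netrins and 0 of 8 ephrins.

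**Figure D3:**
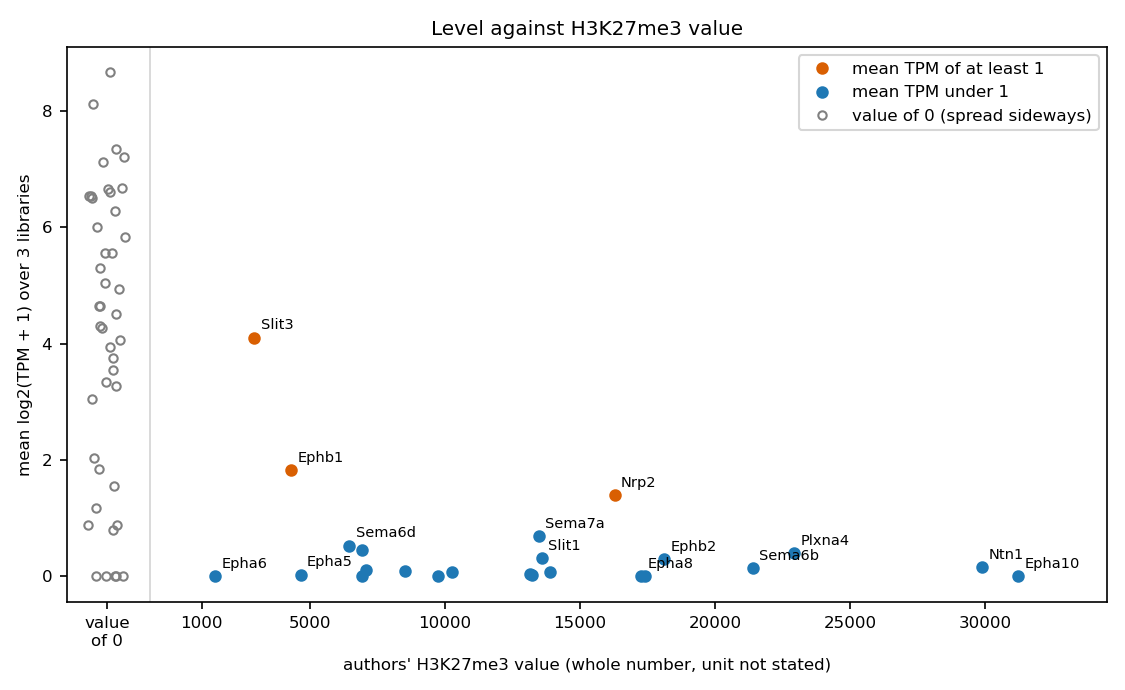
Mean log2(TPM + 1) over 3 libraries against the authors' H3K27me3 value, with genes at a value of 0 spread sideways in the strip at left. Only Slit3, Ephb1 and Nrp2 of the 24 genes with a value have a mean of at least 1 TPM.

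The 8 genes that were neither detected nor given a value were Robo4, Ntn5, Plxnb3, Sema3g, Sema3a, Sema3b, Plxnd1 and Nrp1. The first 4 were at 0 counts throughout, where 3 counts would be at most 0.0525, 0.126, 0.0429 and 0.0613 TPM, and Sema3a had 1 count in all. The last 3 lay just under the limit, from 0.739 to 0.893 TPM.

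CG dinucleotides (the motif CG, the same on both strands) were counted in the 250 bases upstream of the start for the 54 genes with a RefSeq start within 1000 bases of the annotated gene start. The median was 16.5 for 28 detected genes without an H3K27me3 value and 20 for 17 undetected genes with one. It was 5.5 for the 6 undetected genes without a value: Ntn5 and Robo4 had 2, Plxnb3 3, Sema3g 8, Nrp1 11 and Plxnd1 16. Over protein-coding genes the medians of the same classes were 17, 13 and 3, so low CG content of undetected genes without a value was also seen over all genes. The 3 detected genes with a value had a median of 32, beside 15 over protein-coding genes of that class. Epha8, whose sequence is printed above, had the most CG of the 54 genes, with 46. Fewer than 10 CG were found for 12 of the 54 genes (22.2%) and 41.6% of 13608 protein-coding genes. Among undetected genes with a value, Sema4f with 4 and Sema6d with 9 were the exceptions under 10.

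**Figure D4:**
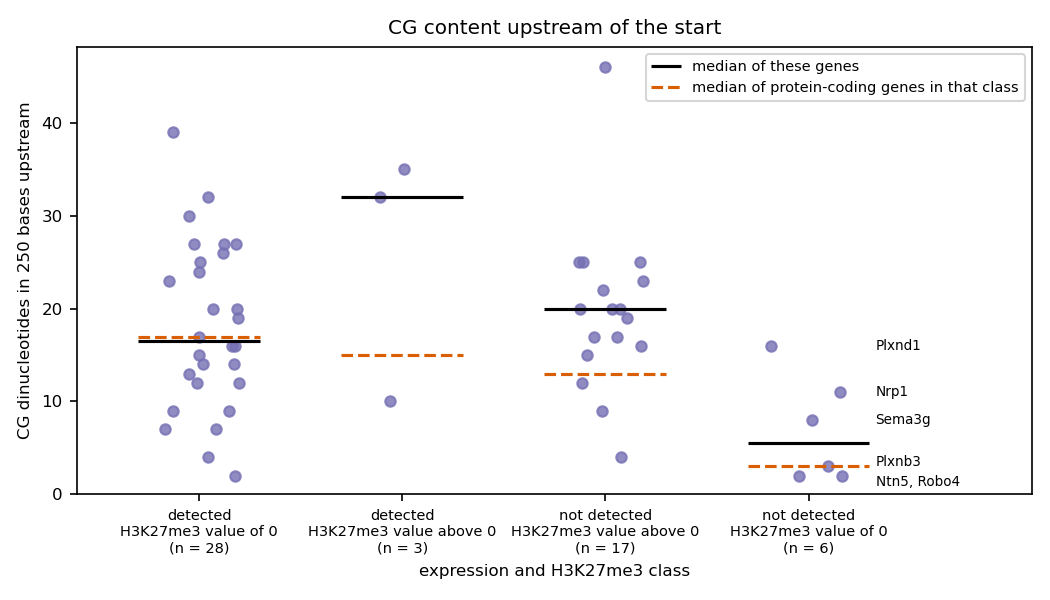
Number of CG dinucleotides in the 250 bases upstream of the start for 54 genes (points), grouped by detection and H3K27me3 value, with the median of the points (black) and of all protein-coding genes of that class (dashed). Of the undetected genes without a value, only Nrp1 and Plxnd1 have 10 or more.

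The authors' deposited table compares these libraries with others named Bulge, a stem cell compartment of the hair follicle, which were not analysed here. That comparison cannot be told apart from differences in how the libraries were made. Among the 67 genes, 56 had an adjusted p-value in the authors' deposited table, and 23 of these (41.1%) were higher in the Alpha6+/Sca1- libraries and 13 (23.2%) lower at an adjusted p under 0.05. Over all 20274 entries with an adjusted p-value the shares in the authors' deposited table were 23.6% and 32.0%. Of the 38 detected genes, 57.9% were higher and 18.4% lower in the authors' deposited table. Of 13506 detected entries with an adjusted p-value, 35.1% were higher and 25.6% lower there. The median log2 fold change in the authors' deposited table was 0.55 over the 56 genes and -0.36 over all entries with an adjusted p-value. Markers of other cell layers moved in the same comparison. All 5 suprabasal markers were higher in the authors' deposited table, with log2 fold changes from 2.49 (Krt1) to 5.78 (Lor). Of 5 basal keratinocyte markers, 3 were higher and 1 lower in the authors' deposited table. Krt14, Krt5 and Itgb4 had log2 fold changes of 2.36, 1.18 and 0.57, and Trp63 had -1.47. Itga6, at -0.35, did not pass the threshold there. Of the 8 stem cell markers in the authors' deposited table, Krt15, Cd34 and Col17a1 were higher, and Lgr5, Sox9 and Nfatc1 were lower, with log2 fold changes of -1.47, -0.93 and -0.93. The part of these cells in the fold changes of the guidance and Eph genes was not tested.

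In the authors' deposited table, 6 of 8 ephrins were higher: Efna1 had a log2 fold change of 3.04 (adjusted p = 1.96e-35), Efnb1 a log2 fold change of 2.43 (adjusted p = 7.97e-16), Efna4 a log2 fold change of 2.36 (adjusted p = 2.13e-19) and Efna3 a log2 fold change of 2.17 (adjusted p = 3.69e-13). Efna2 and Efnb3 had log2 fold changes of 1.95 and 2.40 in the authors' deposited table. Efna5 and Efnb2 were lower there, with a log2 fold change of -1.48 (adjusted p = 1.62e-07) and a log2 fold change of -0.67 (adjusted p = 0.00454). Each type of ephrin thus held higher and lower members. Of the 10 Eph receptors with an adjusted p-value, 4 were higher in the authors' deposited table: Ephb6 with a log2 fold change of 2.24 (adjusted p = 1.34e-21), Ephb3 with a log2 fold change of 1.67 (adjusted p = 3.17e-07), Epha2 with a log2 fold change of 1.39 (adjusted p = 2.15e-07) and Epha1 with a log2 fold change of 0.92 (adjusted p = 2.30e-05). Epha4 alone was lower in the authors' deposited table, with a log2 fold change of -1.40 (adjusted p = 3.42e-09). Ephb4 did not pass the threshold in the authors' deposited table, with a log2 fold change of 0.51 (adjusted p = 0.144).

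Of 17 semaphorins with an adjusted p-value, 7 were higher and 3 lower in the authors' deposited table. Sema3f had a log2 fold change of 2.28 (adjusted p = 1.21e-08) and Sema6c a log2 fold change of 2.23 (adjusted p = 1.02e-07) in the authors' deposited table. Sema4g, Sema4c and Sema4a of class 4 were also higher in the authors' deposited table, with log2 fold changes of 1.47, 1.36 and 1.16, and Sema3d had a log2 fold change of 0.81 (adjusted p = 0.0241). The lower genes in the authors' deposited table were Sema5a with a log2 fold change of -1.71 (adjusted p = 4.92e-14), Sema6a with a log2 fold change of -1.03 (adjusted p = 0.00746) and Sema3c with a log2 fold change of -0.52 (adjusted p = 0.0333). Sema3e, the highest semaphorin, had a log2 fold change of -0.36 (adjusted p = 0.148) in the authors' deposited table. Among plexins, Plxna2 was lower in the authors' deposited table with a log2 fold change of -1.49 (adjusted p = 1.02e-14), while Plxnb2 was higher with a log2 fold change of 1.05 (adjusted p = 4.73e-04). Plxnb1 and Plxna3 were higher by less, with log2 fold changes of 0.48 and 0.61 in the authors' deposited table. Plxnb3, Plxnc1 and Plxna4, all under 1 TPM here, were lower, from -3.10 to -1.57 in the authors' deposited table. Their adjusted p-values there were 0.0488, 0.0139 and 0.00642. Plxnb3 had 0 counts in every library here, and Plxnc1 had at most 10.

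Ntn4 and Unc5b were both higher in the authors' deposited table, with a log2 fold change of 1.32 (adjusted p = 2.55e-04) and a log2 fold change of 1.13 (adjusted p = 4.31e-04). Slit2, Ntn1 and Unc5c, each with an H3K27me3 value and under 1 TPM, were lower in the authors' deposited table, with a log2 fold change of -3.74 (adjusted p = 0.0017), a log2 fold change of -2.50 (adjusted p = 0.00419) and a log2 fold change of -2.26 (adjusted p = 9.48e-07). Slit2 and Ntn1 had at most 5 and 14 counts in a library here. Slit3, Robo1 and Robo2 did not pass the threshold in the authors' deposited table, with log2 fold changes of -0.77, -0.69 and -0.27. Of the 24 genes with an H3K27me3 value, 2 were higher, 5 lower and 10 not called in the authors' deposited table, and 7 had no adjusted p-value. Of 1354 entries with such a value and an adjusted p-value, 11.4% were higher and 21.6% lower in the authors' deposited table. The higher 2 were Nrp2, with a log2 fold change of 1.34 (adjusted p = 0.00809), and Sema7a, with a log2 fold change of 2.86 (adjusted p = 0.0404), in the authors' deposited table. They also had the highest scores of these genes in the authors' deposited table, where Sema7a ranked 61 and Nrp2 71 of 20274. The score depends on the H3K27me3 value, the fold change and the strength of its test, but is not 0 at a value of 0. A large value alone lifts the rank. Sema6b, with a value of 21396 and an adjusted p of 0.853, ranked 463 in the authors' deposited table, above Efna1 with a value of 0 at 648. Sema7a rested on 4, 27 and 71 counts here.

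**Figure D5:**
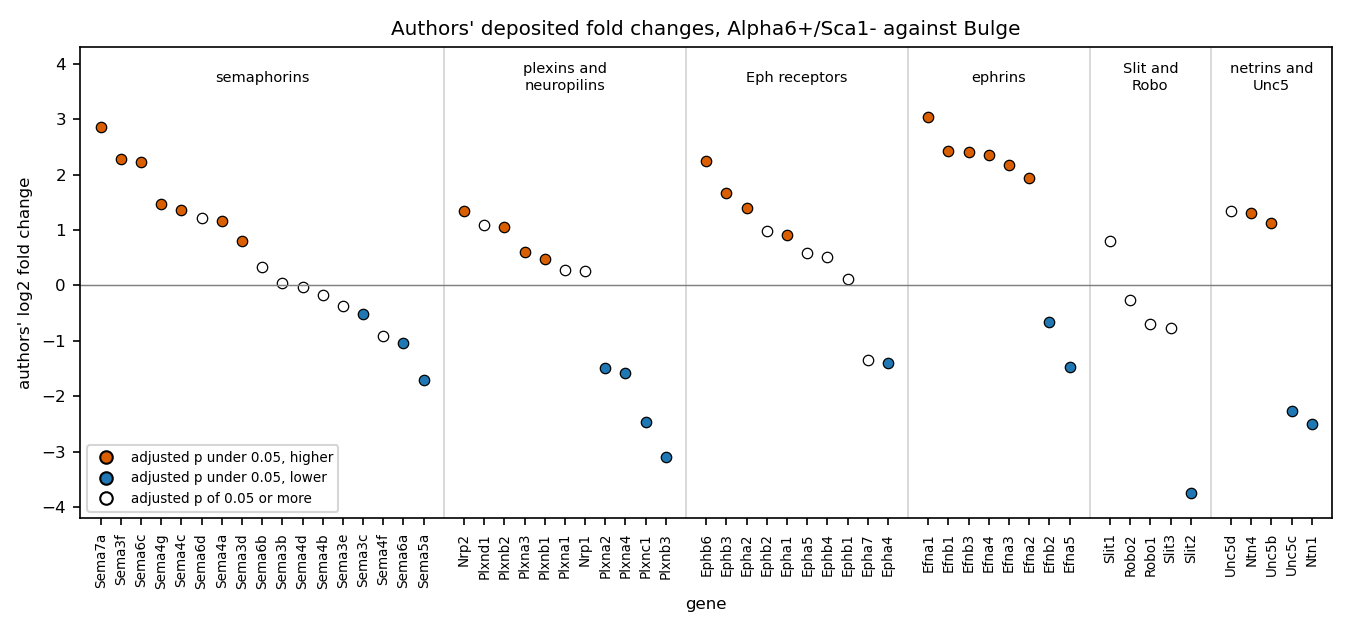
Log2 fold change of 56 genes in the authors' deposited table, Alpha6+/Sca1- against Bulge libraries, by family; orange and blue mark an adjusted p under 0.05 (higher and lower) and white the rest. Of 8 ephrins, 6 are orange and lie between 1.95 and 3.04.

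Genes that act with these families were read from 4 lists with 52 names, 51 of them in the table. Of these 51, 42 (82.4%) were detected, beside 54.9% of protein-coding genes. Of the 47 with an adjusted p-value, 13 were higher and 21 lower in the authors' deposited table, beside 23.6% and 32.0% of all entries. Over detected entries with an adjusted p-value, the shares in the authors' deposited table were 35.1% and 25.6%. Among Eph and ephrin effectors, 16 of 17 were detected, and 4 were higher and 6 lower in the authors' deposited table. The highest of them were Sdcbp (syntenin, an adaptor that binds type B ephrins) with 81.5 ± 8.29 TPM, the kinase Src with 66.6 ± 8.45 TPM and Tiam1, an activator of Rac, with 60.6 ± 5.03 TPM (SD, n = 3). Among semaphorin and plexin effectors and coreceptors, 13 of 16 were detected, and 4 were higher and 8 lower in the authors' deposited table. The highest were the small GTPase Rras with 208 ± 17.2 TPM, the receptor kinase Erbb2 with 59.3 ± 11.4 TPM and Arhgef12, which binds plexin B receptors, with 45.5 ± 4.07 TPM (SD, n = 3). All 8 Slit and Robo effectors were detected, with 3 higher and 3 lower in the authors' deposited table, led by the actin regulator Vasp with 109 ± 14.6 TPM, the proteoglycan Gpc1 with 23.9 ± 4.75 TPM and the actin regulator Enah with 20.9 ± 1.80 TPM (SD, n = 3). Of 10 relatives of netrins and their receptors, 5 were detected, with 2 higher and 4 lower in the authors' deposited table. Neo1 was the highest of them, followed by the Unc5 ligands Flrt3 with 55.9 ± 34.5 TPM and Flrt2 with 52.2 ± 9.73 TPM (SD, n = 3). Flrt3 had 95.3, 40.7 and 31.6 TPM in replicates 1, 2 and 3.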

How the data were processed

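RNA-seq values came from 1 table of 44625 entries for 3 libraries of 1 group. The authors deposited read counts as whole numbers and TPM for every gene, per the file headers; TPM recomputed from counts and gene length differed by at most 4.72e-06. The authors also deposited a log2 fold change, its adjusted p-value, an H3K27me3 value and a score per gene, per the file headers. FastQC, TopHat2, SAMtools, DESeq2, DESeq and the build mm10 (GRCm38) are listed in the submitters' processing notes; the counting tool and strand setting are not given in the sources used here. Another 6 columns of per-sample values, named Bulge, match no sample and were not used. Of 2555 entries with 0 counts in all 3 libraries and a fold change, 2555 had a negative one, so positive means higher in the Alpha6+/Sca1- libraries.

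With 1 group, no test between groups was possible; values, SDs over 3 libraries and counts were computed in Python 3.11.15 with pandas 2.3.3. A deviation of over 1 on the log2 scale from both other libraries marked a gene as standing apart. Coordinates are from GENCODE M21 (GRCm38), found for all 67 genes, and upstream sequences from RefSeq (GRCm38.p6), which held 58 of the 67, 54 of them within 1000 bases of the GENCODE start; where a gene had several starts the one with the most CG was taken. The limit for 0 counts is 3 counts. The symbol rule uses no measured value, but which families and lists to describe was chosen with earlier results of these data known. Values in each library are printed for the 3 highest genes of each family, detected genes with an H3K27me3 value, and detected genes with an adjusted p under 0.05 and a log2 fold change of at least 1 in size in the authors' deposited table. Other members are given by their levels or counts, and of each list of further pathway genes the 3 highest; Dcc was named after its values were seen. Alternatives were leaving out each replicate, rescaling by upper quartile, other detection limits, pseudocounts, CPM and other thresholds.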

Additional observations from a re-analysis of the deposited data

How the results depend on the processing

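Leaving out each replicate kept the number of detected genes at 38 or 39 and that of detected genes with an H3K27me3 value at 3. The median of the 67 genes moved between 1.80 and 2.00 without a replicate. It was 1.40 with a pseudocount of 0.1 and 4.79 over detected genes only. Detected genes with an H3K27me3 value numbered 1 at a limit of 5 TPM and 7 at 1 CPM. On CPM, which leaves gene length in, the log2 ratio was 0.39 for type B to type A ephrins, 0.12 for Eph receptors to ephrins, and -0.85 for Slit to Robo, against -0.86, -0.32 and 0.35 on TPM, so that all 3 turned sign. The other ratios on CPM were 1.27 for EphB to EphA, 0.18 for plexin B to A, -1.52 for class 4 to class 3 semaphorins and -1.65 for netrins to Unc5. Leaving out a replicate put the Slit to Robo ratio between -0.03 and 0.98. Other summary values kept within 1 SD or 1.5 times under the alternatives run, and upper-quartile rescaling shifted libraries by -0.14, 0.06 and 0.07 on the log2 scale. At an adjusted p under 0.01 the authors' deposited table held 19 higher and 10 lower genes. No paired analysis was possible because the libraries form 1 group. Counts of 16 or fewer in every library, held by 15 of the 21 undetected genes with an H3K27me3 value, limit what can be said of their order.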

Other observations

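The ephrins and Eph receptors that were highest in replicate 2 were Efna1, Efna2, Efna3, Efna4, Efna5, Efnb1, Epha2, Epha4, Ephb1, Ephb3 and Ephb4. The median SD of log2(TPM + 1) over libraries was 0.26 for the detected guidance and Eph genes and 0.25 for detected protein-coding genes.

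Of the 24 genes with an H3K27me3 value, 5 shared that number with another entry: Epha10 with 1700125G02Rik, Epha7 with Gm11915, Plxnc1 with Gm25266, Slit1 with Gm22601 and Unc5c with Gm15688. Robo3 had a value of 13222 while its neighbour Robo4 had 0.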
